A study of Schizosaccharomyces pombe with 32 samples.

Results

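The comparison asks which changes that fission yeast cultures undergo over 4 h without stress are missing when the same hours follow a dose of hydrogen peroxide. For each probe set, the mean change at 180 and 240 min from 0 min in untreated cultures was subtracted from the same change in peroxide-treated ones, on the log2 scale. All arrays labelled with these 3 times were taken, 12 of the 32 arrays of the study. All came from Schizosaccharomyces pombe JB50, a homothallic (h90) strain whose cells can mate with their own descendants, grown at 32 °C in shaken batch cultures of rich YES medium. The stressed group was 2 cultures given 0.5 mM H2O2, sampled just before the dose (0 min) and 180 and 240 min after it. The untreated group was 2 further cultures without peroxide, sampled at the same times. Each number stands for 1 batch culture, so the 180 and 240 min arrays of a culture are repeated samples of it. The p-values rest on the spread between the 2 cultures of a series at the same time. The main fit treats the 2 late arrays of a culture as independent, which can make its p-values too small. The labels mention stressed cultures that started at different densities without tying a density to an array. Cell number, glucose and mating were not measured in the files used here, so time in culture and growth cannot be told apart.

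A homothallic fission yeast culture can leave the cell cycle when nutrients run low. The transcription factor Ste11 then switches on pheromone and receptor genes, cells conjugate, and a later programme driven by factors such as Mei4 carries the zygote through meiosis and sporulation. As glucose falls, fission yeast also turns on gluconeogenic genes such as fbp1 and exchanges hexose transporters, and it turns down genes of biosynthesis. Peroxide activates the Sty1 kinase with its factor Atf1, and the factor Pap1, which drive stress and antioxidant genes. The arrays read pooled RNA of a whole culture, so fewer cells of a type and less RNA per cell cannot be told apart.

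The deposited values are signals on a linear scale, with array medians from 1.52 to 2.0. The level at which a probe set is detected is unknown, so changes from low signals carry no known bound. Levels are compared within a probe set only. At 0 min, 0 of 4972 probe sets differed between stressed and untreated cultures at an adjusted p under 0.05 (limma, Benjamini-Hochberg), and 65 did at an unadjusted p under 0.05. The 180 and 240 min arrays of stressed culture 2 were the most alike of all 496 pairs of arrays, with a median absolute log2 difference of 0.0741, against 0.202 for stressed culture 1, 0.262 for untreated culture 1 and 0.208 for untreated culture 2. The 30 min array of stressed culture 2 stood apart from the rest of the study. Its highest correlation with any other array was 0.909, and no other array was under 0.973. It is not among the 12 arrays but enters the estimate of the spread, and without it 192 probe sets in place of 161 passed the test of the late difference.

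Few probe sets passed the test of the late change over both stressed cultures, and many did in untreated ones. In stressed cultures 7 of 4972 probe sets passed (0.141%), all of them higher, with 347 at an unadjusted p under 0.05. In untreated cultures 582 passed (11.7%), 349 higher (7.02%) and 233 lower (4.69%), called growth-linked below for the hours in culture they go with. The difference of the changes passed for 161 probe sets (3.24%), 54 higher (1.09%) and 107 lower (2.15%) after peroxide. Of these 161, 154 were growth-linked changes missing after peroxide, meaning that the untreated change passed, the difference passed with the opposite sign, and stressed cultures showed less than 0.5 of the untreated change. That is 3.10% of all probe sets. They divided into 105 that rose in untreated cultures (2.11%) and 49 that fell (0.986%), and 86 of the 154 carry 1 gene symbol. Both tests use the untreated arrays, so they are not independent of each other. With the culture as a block, which pairs the arrays of each culture, the difference passed for 437 probe sets and 394 changes were missing, including all 154. With each culture counted once, the difference passed for 31 and 29 changes were missing.

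The untreated change that chose the 582 growth-linked probe sets was computed from untreated arrays, while all 32 arrays set the spread it was tested against. With the 10 untreated arrays alone, 722 passed. Among the 349 that rose, the median late change was -0.08 in stressed culture 1 and 0.21 in stressed culture 2, against 1.53 and 1.46 in untreated cultures 1 and 2. Among the 233 that fell, it was 0.01 and -0.22 in stressed cultures 1 and 2, against -1.18 and -0.98 in untreated cultures 1 and 2. Stressed culture 1 kept at least 0.5 of the untreated change in 16 of the 582 (2.75%), and stressed culture 2 in 154 (26.5%). Both kept it in 8 and neither in 420. Both stressed cultures lay on the same side of both untreated cultures in 530 of the 582. The 582 were chosen for untreated changes away from 0, so this count partly follows from that choice. The share over all probe sets was not computed, so the count is a description only. Across all probe sets, the late change of stressed culture 2 correlated with that of stressed culture 1 at r = 0.18, and that of untreated culture 2 with untreated culture 1 at r = 0.83. These correlations describe probe sets that share arrays and are not tests.

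**Figure D1:**
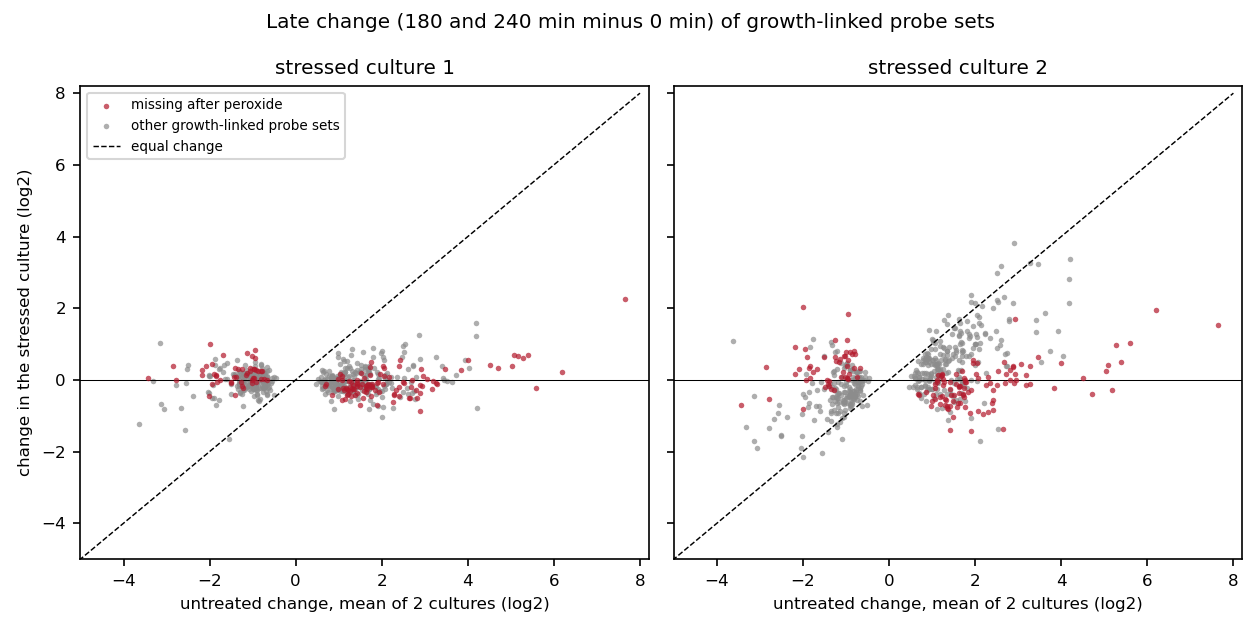
Late change of the 582 growth-linked probe sets in stressed culture 1 (left) and stressed culture 2 (right), in log2 units on the vertical axis, against the mean untreated change in log2 units on the horizontal axis. Red points are the 154 missing changes, grey points the other growth-linked probe sets, and the dashed line marks equal change. Points of culture 1 lie along 0, and part of the grey points of culture 2 lean towards the line.

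Genes named for mating or meiosis were among the largest missing rises with a gene symbol. In the list of mating and meiotic entry genes, 5 of 31 probe sets rose in untreated cultures (16.1%, against 7.02% of all probe sets) and 0 fell. Of the 5 rises, 3 were missing after peroxide (9.68% of the list, against 2.11% of all probe sets for missing rises). The median late change of the list was 0.05 and 0.00 in stressed cultures 1 and 2, against 0.21 and 0.79 in untreated cultures 1 and 2. The missing members were mam2, gpa1 and mfm3. The gene mam2, which encodes the receptor by which M cells sense P-factor, had signals of 0.366 and 0.150 at 180 and 240 min in stressed culture 1 and 0.170 and 0.174 in stressed culture 2. Its signals were 3.16 and 3.04 in untreated culture 1 and 2.79 and 3.05 in untreated culture 2. At 0 min the 4 cultures lay between 0.157 and 0.444, and the late untreated signals all lay above that range, while 1 late stressed signal lay below it. The difference of the changes was -3.15 ± 0.71 (SE, adjusted p = 0.0171).

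The pheromone response gene gpa1, for the G protein alpha subunit that transmits the mating signal, averaged 0.521 ± 0.106 in stressed cultures and 1.69 ± 0.00488 in untreated cultures at the late times (SD, n = 2 cultures each). The difference of its changes was -1.34 ± 0.36 (adjusted p = 0.0478). For mfm3, one of 3 genes that encode the same M-factor pheromone and so may share hybridisation, the averages were 0.285 ± 0.0346 in stressed cultures and 1.02 ± 0.295 in untreated cultures, with a difference of -1.80 ± 0.36 (adjusted p = 0.00773). The master regulator gene ste11 rose in untreated cultures by 1.66 (adjusted p = 0.0172). Its signals were 1.26 and 1.48 in stressed culture 1 and 1.62 and 1.43 in stressed culture 2, against 6.11 and 3.68 in untreated culture 1 and 8.01 and 8.11 in untreated culture 2. The groups did not overlap, but the difference of -1.75 ± 0.62 did not pass (adjusted p = 0.154). Of the regulators chosen after their values were seen, mei4, the forkhead factor of mid-meiosis, rose by 1.5 in untreated cultures, and its difference of -1.15 ± 0.38 did not pass either (adjusted p = 0.117). The meiotic regulators mei2 and mei3 and the meiotic cohesin gene rec8 passed neither test, with untreated changes of -0.54, 0.97 and 0.50 for mei2, mei3 and rec8.

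Single genes with a known or named link to meiosis were among the named rises. The gene rec10, for an axis protein of meiotic chromosomes that recombination needs, had 0.224 and 0.246 in stressed culture 1 and 0.102 and 0.143 in stressed culture 2 at 180 and 240 min. In untreated culture 1 it had 6.01 and 7.70, and in untreated culture 2 it had 3.82 and 3.84. All 4 late untreated arrays thus exceeded every late stressed array, and at 0 min the cultures held 0.116 to 0.262. The rule that named genes by the largest differences required culture changes without overlap, so this gap is not separate support. The difference was -4.28 ± 0.80 (adjusted p = 0.00492). The gene meu27, named for its induction in meiosis, had 0.0930 and 0.0838 in stressed culture 1 and 0.0537 and 0.0463 in stressed culture 2. It reached 1.87 and 2.23 in untreated culture 1 and 1.40 and 1.52 in untreated culture 2. With a difference of -4.99 ± 0.87 (adjusted p = 0.00295) it was the largest missing rise among probe sets with 1 symbol. With 0.1 added to every signal its difference was -3.54, smaller in size than -4.00 for mug95, -3.85 for rec10 and -3.62 for mde6. The rank of meu27 thus depends on low signals. For mug95, another gene named for its meiotic rise, the late signals were 0.120, 0.115, 0.0587 and 0.0443 in stressed cultures, against 4.57, 7.32, 2.74 and 3.12 in untreated ones, a difference of -4.74 ± 0.86.

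The gene mde6, named for its dependence on Mei4, rose by 3.83 in untreated cultures. Its late average was 0.341 ± 0.0774 in stressed cultures and 9.13 ± 0.841 in untreated cultures (SD, n = 2 each), and its difference was -3.81 ± 0.48 (adjusted p = 0.000261). It had 0.329 and 0.333 at 0 min in stressed cultures 1 and 2, against 0.593 and 0.690 in untreated cultures 1 and 2. Genes of nuclear movement in meiotic prophase belonged here too. The cortical dynein anchor gene num1 differed by -3.36 ± 0.64 (adjusted p = 0.00554) and the dynein heavy chain gene dhc1 by -3.02 ± 0.80 (adjusted p = 0.0436). Late averages of dhc1 were 0.0891 ± 0.0311 in stressed cultures and 1.06 ± 0.548 in untreated cultures. The copper-fist factor gene of meiosis, cuf2, differed by -2.83 ± 0.65, but by -1.65 when 0.1 was added to every signal. The homologous pairing gene meu13 rose by 3.93 in untreated cultures, and its difference of -2.97 ± 0.86 did not pass (adjusted p = 0.068), but did with the culture as a block (adjusted p = 0.00361) and not with each culture counted once (adjusted p = 0.0526).

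Among the meiotic upregulation (mug) genes, 12 of 91 probe sets rose (13.2%) and 2 fell (2.2%) in untreated cultures, against 7.02% and 4.69% of all probe sets. Of the 12 rises, 5 were missing (5.49% of the list, against 2.11% of all probe sets for missing rises). These 5 were mug95, mug133, mug5, mug27 and mug106, the last chosen after its values were seen. The difference was -3.48 ± 0.83 for mug133 and -2.80 ± 0.68 for mug5. The kinase gene mug27 is a case where the stressed cultures disagree. Its late change was 0.31 in stressed culture 1 and 1.70 in stressed culture 2, against 2.85 and 2.99 in untreated cultures 1 and 2, and the difference was -1.91 ± 0.51 (adjusted p = 0.0461), or -1.22 with 0.1 added to every signal. Of 18 meu genes, a family picked after values were seen, 8 rose in untreated cultures, against 7.02% of all probe sets. The difference passed in 5 of the 18, all lower after peroxide, against 2.15% of all probe sets. These include meu17, a glucoamylase gene, at -3.39 ± 0.50 (adjusted p = 0.00056), meu22 at -2.93 ± 0.39 and meu15 at -2.90 ± 0.60. With 0.1 added to every signal, meu17, meu22 and meu15 differed by -2.59, -1.98 and -2.07. The wtf genes, a multigene family whose members share sequence and so may share hybridisation, were picked in the same way. In that family 7 of 18 probe sets rose in untreated cultures and 0 passed the test of the difference in limma, with 4 at an unadjusted p under 0.05. Among all probe sets 7.02% rose and 3.24% passed that test, so 0 of 18 says little about the family.

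**Figure D2:**
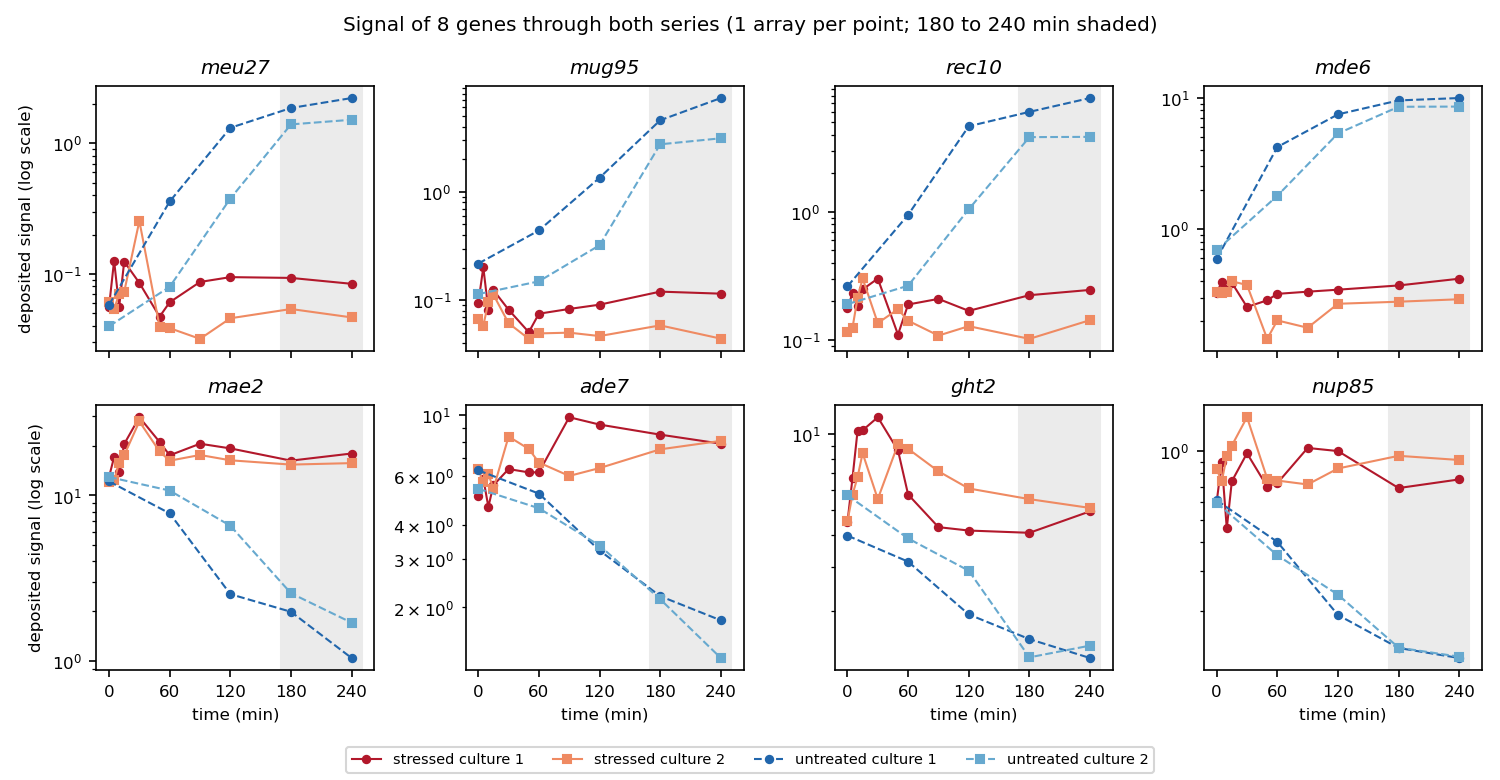
Deposited signal (log axis) of 4 genes that rose and 4 that fell in untreated cultures, against time in minutes, with 1 point per array, solid red and orange lines for stressed cultures and dashed blue lines for untreated ones. The shaded times are those compared. In untreated cultures the lines part from their start by 60 or 120 min, and the stressed cultures end far from them in all 8 genes.

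Of 32 probe sets of cell wall synthesis and remodelling genes, 8 rose (25%) and 1 fell (3.12%) in untreated cultures, against 7.02% and 4.69% of all probe sets. Missing rises numbered 3 (9.38% of the list, against 2.11% of all probe sets). The glucan synthase gene bgs1, which builds the septum, had 3.46 and 3.98 in stressed culture 1 and 2.88 and 2.69 in stressed culture 2. It had 10.7 and 9.28 in untreated culture 1 and 10.3 and 8.97 in untreated culture 2, with no overlap. Its difference was -1.47 ± 0.31 (adjusted p = 0.0107). The related glucan synthase gene bgs3 differed by -1.79 ± 0.41, and the mannosyltransferase gene omh1 by -1.87 ± 0.39. In the list of mitosis and cell separation genes, 5 of 42 probe sets rose (11.9%) and 4 fell (9.52%) in untreated cultures. Among all probe sets 7.02% rose and 4.69% fell. In this list 3 changes were missing (7.14%, against 3.10% of all probe sets), those of bgs1, cut7 and ams2. The kinesin gene cut7, whose product separates the spindle poles, averaged 0.379 ± 0.166 in stressed cultures and 3.24 ± 1.34 in untreated cultures, a difference of -2.96 ± 0.63 (adjusted p = 0.0132).

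In the list of hexose transport and glucose regulation genes, 4 of 27 probe sets rose and 4 fell in untreated cultures (14.8% each, against 7.02% and 4.69% of all probe sets). After peroxide 3 were missing, 1 rise (3.7%, against 2.11% of all probe sets) and 2 falls (7.41%, against 0.986%). The hexose transporter gene ght1 rose by 2.42 in untreated cultures, with late averages of 0.0625 ± 0.0371 in stressed cultures and 0.516 ± 0.0338 in untreated cultures. Its difference was -2.42 ± 0.58 (adjusted p = 0.0242), or -1.59 with 0.1 added to every signal. Its relative ght2 went the other way. The late signals of ght2 were 4.08, 4.96, 5.54 and 5.11 in stressed cultures and 1.56, 1.31, 1.32 and 1.47 in untreated ones, and at 0 min it had 4.50 and 4.53 in stressed cultures 1 and 2 and 3.98 and 5.73 in untreated cultures 1 and 2. The difference of ght2 was 1.88 ± 0.42 (adjusted p = 0.0175). These transporters form a family of similar sequence, so cross-hybridisation among them was not tested. The third missing member, gpa2, encodes the G protein alpha subunit of glucose sensing. It fell by 1.40 in untreated cultures, and its difference was 1.11 ± 0.28 (adjusted p = 0.0353).

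The gluconeogenic gene fbp1, a fructose-1,6-bisphosphatase that glucose represses, lay just outside the threshold. It had 0.190 and 0.275 in stressed culture 1 and 0.825 and 0.771 in stressed culture 2 at 180 and 240 min, against 2.58 and 3.30 in untreated culture 1 and 2.83 and 5.98 in untreated culture 2. It rose by 3.63 in untreated cultures, and the difference was -2.73 ± 0.75 (adjusted p = 0.0504), with adjusted p = 0.0218 with the culture as a block and adjusted p = 0.166 with each culture counted once. All late untreated signals exceeded all late stressed ones, and stressed culture 2 lay above stressed culture 1.

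Falls that were missing after peroxide included genes of metabolism and of growth. The malic enzyme gene mae2, whose product turns malate into pyruvate, was the largest of them with 1 symbol. It had 16.2 and 17.9 in stressed culture 1 and 15.4 and 15.7 in stressed culture 2, against 1.99 and 1.05 in untreated culture 1 and 2.57 and 1.71 in untreated culture 2. At 0 min the 4 cultures held 12.1 to 12.9, so the cultures began together and only the untreated ones fell. The difference was 3.23 ± 0.40 (adjusted p = 0.000261). The malate permease gene mae1 has 2 probe sets on the array. On the named one it fell by 1.94 in untreated cultures, and the difference of 1.45 ± 0.74 did not pass (adjusted p = 0.395). The other probe set of mae1 was not among the growth-linked ones. In the list of TCA cycle and malate genes, 2 of 18 probe sets fell (11.1%, against 4.69% of all probe sets), 0 rose and 1 fall was missing (5.56%, against 0.986%).

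Genes of purine and amino acid synthesis were among the falls of untreated cultures. For purine and pyrimidine synthesis, 5 of 22 probe sets fell (22.7%, against 4.69% of all probe sets) and 0 rose. In this list 1 fall was missing (4.55%, against 0.986% of all probe sets). The list median was 0.06 and -0.81 in stressed cultures 1 and 2, against -0.83 and -0.42 in untreated cultures 1 and 2. The missing one was ade7, an enzyme gene of purine synthesis, with 8.50, 7.89, 7.52 and 8.07 at the late times in stressed cultures and 2.20, 1.80, 2.14 and 1.31 in untreated ones. Its difference was 2.17 ± 0.31 (adjusted p = 0.000374). The purine gene ade5 had a late change of 0.14 in stressed culture 1 and -0.96 in stressed culture 2, against a fall of -2.02 in untreated cultures, and its difference of 1.61 ± 0.52 did not pass (adjusted p = 0.117). Of 49 amino acid synthesis probe sets, 13 fell (26.5%, against 4.69% of all probe sets), 0 rose and 4 falls were missing (8.16%, against 0.986%). The list medians were 0.03 and 0.01 in stressed cultures 1 and 2, against -0.74 and -0.49 in untreated cultures 1 and 2, while all probe sets had a median difference of -0.04. The missing falls were those of arg12, arg4, his4 and lys1, the last named after its values were seen. The argininosuccinate synthetase gene arg12 differed by 1.81 ± 0.32 (adjusted p = 0.00299), and its late average was 17.5 ± 1.5 in stressed cultures and 4.75 ± 0.732 in untreated cultures. The arginine pathway gene arg4 differed by 1.42 ± 0.38 and the histidine pathway gene his4 by 1.27 ± 0.29. The serine pathway gene ser2 had a late change of 0.30 in stressed culture 1 and -1.55 in stressed culture 2, against a fall of -2.51 in untreated cultures, and its difference of 1.89 ± 0.69 did not pass (adjusted p = 0.173), but did with the culture as a block (adjusted p = 0.0305) and not with each culture counted once (adjusted p = 0.288).

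Other missing falls were single genes of many processes. The nuclear pore gene nup85 had late signals of 0.690, 0.752, 0.953 and 0.914 in stressed cultures and 0.139, 0.125, 0.139 and 0.127 in untreated ones, a difference of 2.40 ± 0.37 (adjusted p = 0.000874). The untreated arrays lay within a narrow band for this gene. The gene cbp6, for a factor of mitochondrial cytochrome b synthesis, differed by 2.72 ± 0.49. The methyltransferase gene pcm1 differed by 2.43 ± 0.44, and mog1, for a partner of the Ran GTPase, by 2.09 ± 0.39. The vesicle coat gene sec31 differed by 2.10 ± 0.53. Genes of the cell cycle among them are cdc22, for the large subunit of ribonucleotide reductase, at 1.52 ± 0.40 (adjusted p = 0.0393), and ams2, for a factor of histone gene transcription, at 1.68 ± 0.32 (adjusted p = 0.00492). In the list of G1/S genes, 5 of 30 probe sets fell (16.7%) and 1 rose (3.33%) in untreated cultures, against 4.69% and 7.02% of all probe sets. Of these, 1 fall and 1 rise were missing (6.67% together, against 3.10% of all probe sets). The rise was that of the replicative helicase gene mcm5, at -1.12 ± 0.25. Of the 6 mcm probe sets, a family picked after values were seen, 3 fell in untreated cultures and only mcm5 rose. Among all probe sets 4.69% fell and 7.02% rose. Among 28 probe sets of antioxidant genes and Pap1 targets, 1 rose (3.57%, against 7.02% of all probe sets) and 0 fell in untreated cultures. That rise, of the Ran-binding protein gene hba1, which acts in nuclear export, was missing at -1.48 ± 0.36 (adjusted p = 0.0262). Missing rises were thus 3.57% of the list, against 2.11% of all probe sets. Of 13 phosphate and thiamine genes 2 rose (15.4%, against 7.02% of all probe sets). The rise of tnr3, for thiamine pyrophosphokinase, was missing at -1.22 ± 0.26 (adjusted p = 0.0128). It made up 7.69% of the list, against 2.11% of all probe sets for missing rises. The proteasome gene rpn7, the only member of 27 in its list to fall, differed by 1.11 ± 0.30 (adjusted p = 0.0499), just inside the threshold. Its fall made up 3.7% of the list, against 4.69% of all probe sets for falls and 0.986% for missing falls.

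**Figure D3:**
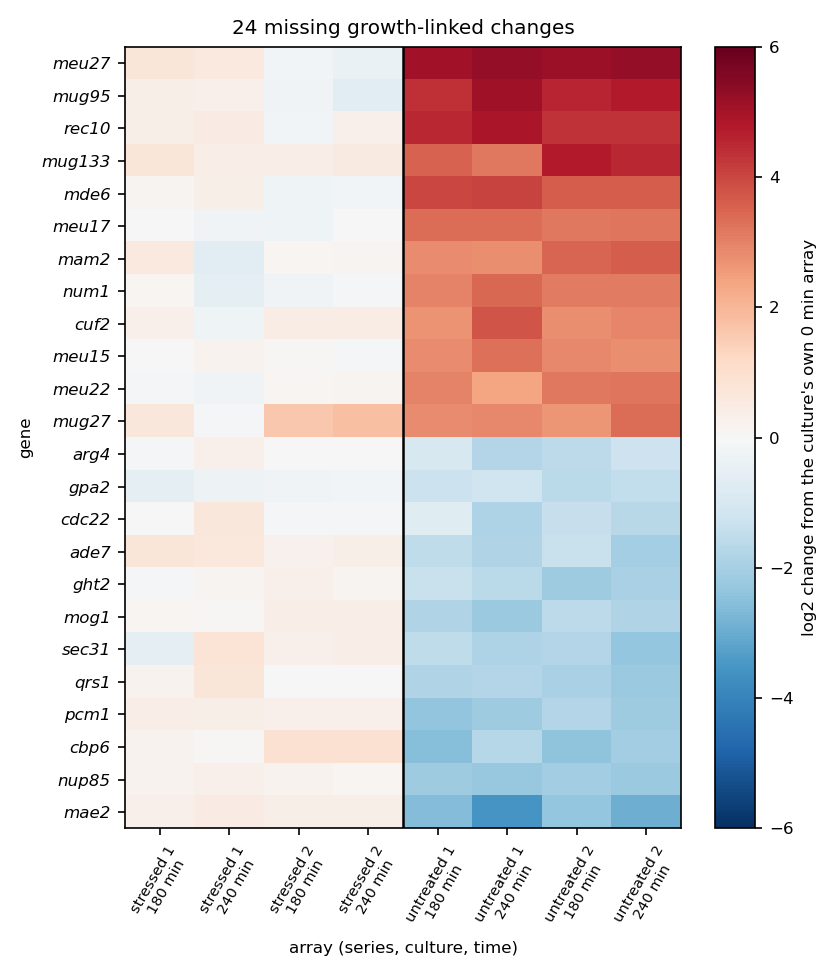
Log2 change from the culture's own 0 min array, by colour, for up to 12 missing rises and 12 missing falls with 1 gene symbol (rows), in each late array (columns, stressed cultures left and untreated right). The stressed columns are pale except for mug27 in stressed culture 2, and the 4 untreated columns are red for the rises and blue for the falls.

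Several further missing rises were chosen after their values were seen. The glycosyltransferase gene imt1 had 2.02 and 1.89 in stressed culture 1 and 2.67 and 2.60 in stressed culture 2, against 15.6 and 16.5 in untreated culture 1 and 13.6 and 13.8 in untreated culture 2. It differed by -2.87 ± 0.36 (adjusted p = 0.000261). The histone acetyltransferase gene mst2 differed by -2.63 ± 0.50, the calcineurin-responsive factor gene prz1 by -2.63 ± 0.47, the MADS-box factor gene mbx1 by -2.38 ± 0.53 and the DNA polymerase delta subunit gene cdc1 by -2.15 ± 0.34. The late averages of prz1 were 1.10 ± 0.0869 in stressed cultures and 7.16 ± 2.71 in untreated cultures. Among probe sets without a symbol here, the untreated rise was 7.65 for 1774284_at and 6.20 for 1779357_at, and the differences were -5.76 and -5.11.

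The missing changes built up with time in untreated cultures. Across the 105 missing rises, the median change at 60, 120, 180 and 240 min was -0.26, -0.17, -0.21 and -0.06 in stressed culture 1, and -0.35, -0.23, -0.19 and -0.14 in stressed culture 2. At the same times it was 0.67, 1.24, 1.78 and 1.99 in untreated culture 1, and 0.38, 1.10, 1.84 and 1.84 in untreated culture 2. The 0, 180 and 240 min values chose these probe sets, so the medians describe that choice and are not separate support. Across the 49 missing falls, the medians at these 4 times were 0.28, 0.30, 0.10 and 0.21 in stressed culture 1, and 0.17, 0.40, 0.31 and 0.36 in stressed culture 2. The medians in untreated culture 1 were -0.36, -0.98, -1.28 and -1.34, and those in untreated culture 2 were -0.33, -0.74, -1.29 and -1.15. Tested time by time, the number of probe sets past the threshold in untreated cultures was 2 after 60 min (0.0402%), 56 after 120 min (1.13%), 275 after 180 min (5.53%) and 490 after 240 min (9.86%). The difference of the changes passed for 72 at 180 min alone (1.45%), 19 higher (0.382%) and 53 lower (1.07%) after peroxide, and for 74 at 240 min alone (1.49%), 20 higher (0.402%) and 54 lower (1.09%). The difference itself moved between 180 and 240 min in 1 probe set (0.0201%), which has no symbol here.

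Most growth-linked changes did not pass the test of the difference, and stressed culture 2 kept part of many of them. Named genes of this kind were chosen after their values were seen. The calmodulin kinase gene cmk1 changed by 0.07 in stressed culture 1 and 1.75 in stressed culture 2, against 1.80 and 2.36 in untreated cultures 1 and 2. The autophagy protease gene atg4 changed by -0.47 and 2.14 in stressed cultures 1 and 2, against 1.91 and 2.09 in untreated cultures 1 and 2. The transporter gene pmd1 changed by 0.32 and 1.38 in stressed cultures 1 and 2, against 2.18 and 1.44 in untreated cultures 1 and 2. In these genes stressed culture 1 stayed near its start or below it, and stressed culture 2 lay closer to the untreated cultures. Of the 8 probe sets in which both stressed cultures kept at least 0.5 of the untreated change, 2 have a symbol, and both belong to iron metabolism. The ferrichrome synthetase gene sib1 changed by 0.57 and 1.37 in stressed cultures 1 and 2, against 1.33 and 0.87 in untreated cultures 1 and 2. The ferroxidase gene fio1 changed by -1.66 and -2.04 in stressed cultures 1 and 2, against -1.41 and -1.71 in untreated cultures 1 and 2. At 0 min fio1 already stood at 2.18 and 2.81 in stressed cultures 1 and 2, against 0.358 and 0.647 in untreated cultures 1 and 2.

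**Figure D4:**
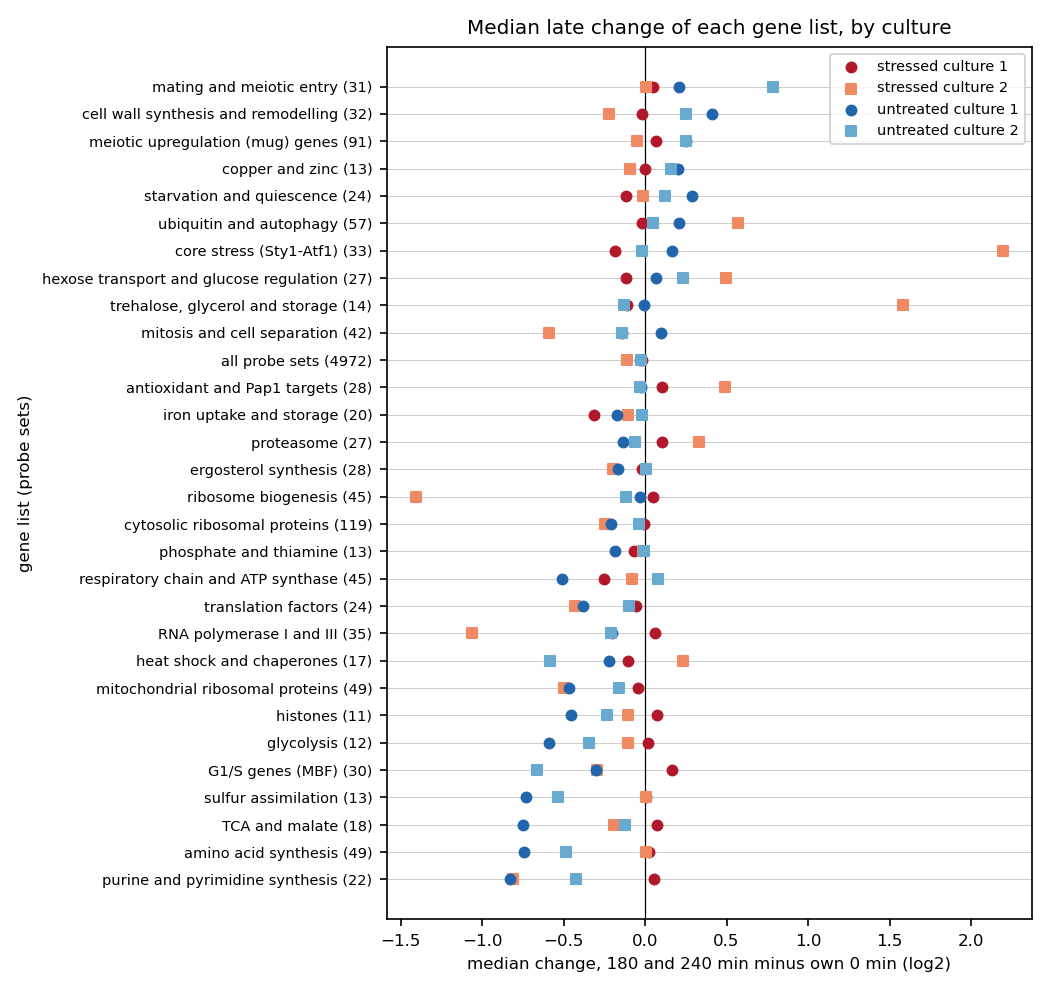
Median late change (log2, horizontal axis) of each gene list (rows, with the number of probe sets), by culture. Stressed culture 2 (orange squares) stands at 2.19 for core stress genes and -1.41 for ribosome biogenesis genes, while stressed culture 1 (red circles) lies near 0 in both. Where points coincide, one hides another.

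Core stress genes stood high, and genes of ribosome production low, in stressed culture 2 at 180 and 240 min, but not in stressed culture 1. Core stress genes under Sty1 and Atf1 had a median late change of -0.18 and 2.19 in stressed cultures 1 and 2, against 0.16 and -0.02 in untreated cultures 1 and 2. Ribosome biogenesis genes had 0.05 and -1.41 in stressed cultures 1 and 2, against -0.03 and -0.12 in untreated cultures 1 and 2. RNA polymerase I and III genes had 0.06 and -1.06 in stressed cultures 1 and 2, against -0.21 and -0.21 in untreated cultures 1 and 2. In these 3 lists 0 of 33, 0 of 45 and 0 of 35 probe sets passed limma's test of the difference (unadjusted p under 0.05 in 9, 1 and 0). Among all probe sets 3.24% passed it, so counts of 0 in lists of this size say little. The sulfiredoxin gene srx1, chosen after its values were seen, shows the split: it had 2.33 and 1.80 in stressed culture 1 and 20.2 and 21.4 in stressed culture 2, against 0.989 and 2.08 in untreated culture 1 and 0.910 and 1.62 in untreated culture 2. The catalase gene ctt1, likewise chosen, had 2.15 and 2.07 in stressed culture 1 and 17.3 and 17.0 in stressed culture 2, against at most 1.49 in untreated cultures at these times. How the split relates to the starting density of the cultures was not tested.

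The remaining 7 of the 161 differences were not missing growth-linked changes. The quinone oxidoreductase gene zta1 differed by 1.81 ± 0.39 (adjusted p = 0.014), with late signals of 13.5 and 11.7 in stressed culture 1 and 21.6 and 20.2 in stressed culture 2, against 5.07 and 3.88 in untreated culture 1 and 5.58 and 6.91 in untreated culture 2. Neither its stressed change of 1.01 nor its untreated change of -0.79 passed alone. Those chosen after their values were seen are the heterochromatin gene chp1, at -1.30 ± 0.32, and the mitochondrial gene mmf1, at 1.18 ± 0.32, and the other 4 probe sets have no symbol here. One of these, 1770946_at, rose in stressed cultures by 2.56 ± 0.30 (adjusted p = 0.000322) and differed by 3.30 ± 0.43. Of the 7 probe sets called in stressed cultures, the one with a symbol was the small heat shock gene hsp16. It had 20.7 and 13.7 in stressed culture 1 and 27.1 and 29.8 in stressed culture 2, against 8.47 and 14.4 in untreated culture 1 and 6.81 and 7.50 in untreated culture 2. At 0 min hsp16 had 4.65 and 3.10 in stressed cultures 1 and 2, against 2.26 and 9.55 in untreated cultures 1 and 2. Untreated cultures 1 and 2 thus changed in opposite directions, by 2.29 and -0.42. The gene rose by 2.53 ± 0.44 in stressed cultures (adjusted p = 0.0248), and its difference from the untreated change, 1.59 ± 0.62, did not pass (adjusted p = 0.214).

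Of 119 probe sets of cytosolic ribosomal protein genes, 2 fell in untreated cultures (1.68%, against 4.69% of all probe sets). Of the 119, 0 passed limma's test of the difference, with 2 at an unadjusted p under 0.05. The glycolysis list had 5 of 12 probe sets lower in untreated cultures (41.7%, against 4.69% of all probe sets) and 0 past the test of the difference (5 at an unadjusted p under 0.05), with a median difference of 0.52. Its hexokinase gene hxk2 fell by 1.28 in untreated cultures, and the difference of 1.09 ± 0.34 did not pass (adjusted p = 0.0944, adjusted p = 0.0186 with the culture as a block, adjusted p = 0.300 with each culture counted once). In sulfur assimilation 4 of 13 fell in untreated cultures (30.8%, against 4.69% of all probe sets). The difference for met16 was 0.85 ± 0.23 (adjusted p = 0.0535, adjusted p = 0.0103 with the culture as a block, adjusted p = 0.377 with each culture counted once). Ubiquitin and autophagy genes had 5 of 57 higher (8.77%) and 3 lower (5.26%) in untreated cultures, near the 7.02% and 4.69% of all probe sets. Starvation and quiescence genes had 5 of 24 higher (20.8%) and 2 lower (8.33%), with 0 differences past the test in either list (8 and 7 at an unadjusted p under 0.05). Further lists also had 0 differences past limma's test, with 0 to 5 at an unadjusted p under 0.05 in each. They were mitochondrial ribosomal proteins, respiratory chain and ATP synthase, ergosterol synthesis, iron uptake and storage, and copper and zinc. Also among them were histones, heat shock and chaperones, translation factors, and trehalose, glycerol and storage. With 3.24% of all probe sets past the test, counts of 0 in such small lists say little.

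The calls depend on both cultures of each series. Counting each culture once, with its 180 and 240 min arrays averaged, left 31 differences and 29 missing changes, of which 27 were among the 154. The named ones among these 27 were meu27, mug95, rec10, mde6, meu17, num1, mam2, cuf2, meu22, meu15, mae2 and mst2. With a culture left out, the number of missing changes was 136 without stressed culture 1, 55 without stressed culture 2, 31 without untreated culture 1 and 44 without untreated culture 2. The difference of mde6, meu22 and ade7 passed in all 4 of these fits, and that of arg4, cdc22, dhc1, cuf2, hba1, mcm5, mug5, mug27 and rpn7 in none. Leaving out the lowest 25% of signals removed 23 of the 41 named genes whose difference passed, among them meu27, mug95, rec10, mde6 and mam2, and 16 of the other 18 passed there.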

How the data were processed

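Total RNA was labelled with biotin and hybridised to single-colour Affymetrix arrays, per the labels' protocols. The authors deposited a linear signal for each probe set. Background correction, probe summary and scaling are not given in the sources used, so the normalization is unknown. Groups came from the sample titles. All 4972 probe sets were log2-transformed with no pseudocount and fitted with limma 3.58.1 in R 4.3.3 (lmFit, eBayes) with 1 mean for each of 16 groups over all 32 arrays (16 residual and 3.23 prior degrees of freedom). Adjusted p-values are Benjamini-Hochberg over all 4972 probe sets, with a threshold of 0.05. A change in 1 culture is against its own 0 min array and has no replicate.

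Of the probe sets, 2903 had 1 symbol in the platform annotation, 16 had several and 2053 were unnamed here; 2900 matched a RefSeq gene table (ASM294v3) by gene ID. The 29 lists given hold 921 probe sets. Named genes included the 10 highest and 10 lowest called late differences in which both stressed cultures lay on the same side of both untreated ones. Non-overlap of the culture changes was thus a rule for these genes and not a finding. Also named were the 10 highest and 10 lowest called untreated changes with the same direction in both untreated cultures. Further named genes were up to 12 missing changes in each direction, and the 3 members of each list with the lowest p in the late difference. The comparison, lists and members were chosen with earlier results of these data known. A number is 1 culture sampled through time, which is the ground for the block. The difference between cultures 2 and 1 at 0 min correlated with that at 180 and 240 min at 0.13 and -0.05 in stressed cultures, so little was shared with their 0 min arrays, and at 0.36 and 0.44 in untreated cultures. Between 180 and 240 min the correlation was 0.94 in stressed and 0.76 in untreated cultures. The 2 late arrays of a culture thus shared much of their deviation, and neither the main fit nor the blocks count them as 1 sample. The test was tried on simulated data with independent noise in each array and no culture effect. That trial cannot check the error rate for repeated samples of 1 culture. Alternatives were the culture as a fixed or random block, each culture counted once, the compared arrays alone, quantile normalization, median centring, an offset of 0.1, leaving out the lowest 25% of signals, probe sets with 1 symbol, each culture left out, and, chosen after seeing the data, leaving out the 30 min array of stressed culture 2. No sequences are given.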

Additional observations from a re-analysis of the deposited data

Results flagged for a closer look

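1 probe set, 1771016_at, which has no symbol here, differed between the 2 late times, by a test of the difference at 240 min against that at 180 min. The change in stressed less that in untreated cultures was 0.79 at 240 min and 2.86 at 180 min, a drop of -2.06 (limma, adjusted p = 0.0114, 0.0201% of probe sets called). Its signals at 180 and 240 min were 19.4 and 20.8 in stressed culture 1 and 20.9 and 20.2 in stressed culture 2, against 2.89 and 11.1 in untreated culture 1 and 2.89 and 13.7 in untreated culture 2. Before that, untreated cultures 1 and 2 held 19.8 and 22.8 at 0 min, 21.1 and 17.8 at 60 min and 6.40 and 5.10 at 120 min. Both untreated cultures thus dipped to 180 min and stood higher at 240 min, and the stressed cultures stayed within a narrow band at these times. No outlier test was possible, since each group holds 2 arrays.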

How the results depend on the processing

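Of 41 named genes whose difference passed, 0 changed sign under the alternatives run on them. Leaving out the lowest signals covered 18 of these genes and removed 23. Most alternatives could not change a sign, because they alter the spread or the probe sets tested and leave the log2 difference as it was. Only quantile normalization, median centring, the offset and leaving out a culture alter that difference. Leaving out a culture could not reverse it in genes named for culture changes without overlap. All 41 also passed with the replicate block. Counts of probe sets moved. The late difference passed for 161 probe sets, and for 437 with the culture as a fixed block (replicate block), 375 with it as a random block, 31 with each culture counted once, 62 with the compared arrays alone, 88 without the lowest signals, 91 over probe sets with 1 symbol, and 36 to 379 with a culture left out. The 7 stressed changes became 14 with the random block, 0 with each culture once or the compared arrays alone (314 at an unadjusted p under 0.05 with each culture once), 1 with 1 symbol and 0 to 761 with a culture left out, 761 being without stressed culture 1. Untreated changes numbered 582 and became 1083, 996 and 202 with the fixed block, random block and each culture once, 343 with 1 symbol and 87 to 722 with a culture left out.

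The difference at 180 min alone, 72, became 229 and 203 with the fixed and random block, 1 with each culture once, 27 with the compared arrays alone, 46 without the lowest signals, 42 with 1 symbol and 0 to 240 with a culture left out. At 240 min, 74 became 313 and 264 with the blocks, 14, 0 and 29 with each culture once, the compared arrays alone and no lowest signals, 118 with 0.1 added and 15 to 142 with a culture left out. The 154 missing changes became 394 and 343 with the blocks, 29 with each culture once, 59 with the compared arrays alone, 84 without the lowest signals, 88 with 1 symbol and 31 to 136 with a culture left out. Fewer probe sets or arrays are tested without the lowest signals, with 1 symbol, with the compared arrays alone and with a culture left out; otherwise the cause was not tested. A fit without a culture rests on 1 culture in that series, assumed to vary like the others. Quantile normalization and median centring left 161 and 175 missing changes, with 125 and 142 shared. Unknown background and 2 cultures per series limit every value.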
